A study of Mus musculus with 5 samples.

Results

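Neutrophils that carried hashtag MHTO5 in the library of mice bearing AT3-gcsf tumours were compared with neutrophils that carried MHTO5 in the library of naive mice. After filtering, 3680 AT3-gcsf MHTO5 cells and 2194 naive MHTO5 cells remained, together 5874 of the 26406 called cell barcodes of the series and of the 24456 cells that the same rules kept in its 3 libraries. Cells were chosen by their dominant hashtag, at least 200 detected genes, less than 10% mitochondrial counts and at least 2% of counts in S100a8 and S100a9. All mice were female wild-type C57BL/6J. AT3 is a mouse mammary carcinoma line, and the name AT3-gcsf points to a form of it linked to G-CSF; the labels do not say how that form was made. The naive mice carried no tumour. In each condition the cells came from bone marrow, blood and lung, and were sorted, marked with 3 hashtag antibodies and loaded together on 1 lane of a 10x Chromium chip, with 24000 cells per lane and 8000 per hashtag. The third library, from mice with AT3 tumours, used other tags (MHTO7, MHTO8 and MHTO10) and serves only as a point of reference. The tissue behind each tag is not stated in the labels, and whether MHTO5 marked the same tissue in both libraries was not given in the sources used here. Each condition filled 1 lane, so condition and lane cannot be told apart, and the number of mice is not stated. Cells of 1 library are not replicates, so no p-value was computed.

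Neutrophils are made in the bone marrow under the control of G-CSF, the product of Csf3, which acts through its receptor Csf3r and the transcription factor STAT3. They fill their granules in a fixed order, from primary through secondary to gelatinase granules, and transcripts of granule proteins fade as the cell matures. Blood neutrophils that enter inflamed or oxygen-poor tissue switch on cytokine, chemokine and survival genes, many of them targets of NF-kB and AP-1, while S100a8, S100a9, lipocalin 2 and serum amyloid A are alarm and acute-phase proteins that are raised in inflammation and cancer.

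The hashtag is a short DNA barcode coupled to an antibody. Its sequence decides which cells belong to the comparison, and it was the same in both hashtag libraries.
MHTO5: ctttgtctttgtgag
Among the kept cells, chosen for a share of at least 80%, the median share of tag counts that came from MHTO5 was 99.8% in AT3-gcsf cells and 99.7% in naive cells.

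The AT3-gcsf MHTO5 cells held 35869228 unique molecule (UMI) counts with a median of 8622.5 per cell, and the naive MHTO5 cells held 6870787 with a median of 2791. The median number of detected genes was 1667 in AT3-gcsf cells and 956 in naive cells. The median mitochondrial share was 1.51% in AT3-gcsf cells and 0.210% in naive cells, and the share of ribosomal protein transcripts was 3.87% in AT3-gcsf and 3.91% in naive cells. The minimum on S100a8 and S100a9 removed 44 AT3-gcsf and 214 naive cells; 52 AT3-gcsf and 226 naive cells lay just inside it, at 2% to 4%, and 8 AT3-gcsf and 92 naive cells just outside, at 1% to 2%. The libraries shared 20 barcode sequences, of which 3 were kept MHTO5 cells in both. Of 12 neutrophil marker genes, all 12 reached 5 CPM (counts scaled to a common total) in both populations. Markers of other cell types were lower in AT3-gcsf than in naive cells for dendritic cells (7.44 against 296 CPM summed over the list), B and plasma cells (8.36 against 106 CPM), erythroid cells (0.167 against 87.2 CPM), platelets (1.42 against 78.3 CPM), fibroblasts (4.57 against 68.6 CPM) and T cells (2.26 against 38.6 CPM). Most of the dendritic cell sum came from the MHC class II genes H2-Aa, H2-Ab1 and H2-Eb1, which are on that list and are described below. The summed monocyte and macrophage markers stood at 401 CPM in AT3-gcsf and 374 CPM in naive cells. Alveolar macrophage markers went the other way, at 358 CPM in AT3-gcsf and 155 CPM in naive cells. Chil3 led them in both, and it is also on the immature neutrophil list. Early neutrophil precursor markers (67.2 against 18.6 CPM) and immature neutrophil markers (11796 against 3327 CPM) were higher in AT3-gcsf cells too. The remaining lists of non-neutrophil cells were lower. Depth, mitochondrial share and these marker sums thus moved with the condition, and except where values with and without such cells are given below, their part in the results was not tested.

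Counts were summed over the cells of each population and scaled to CPM. The comparison took genes with at least 20 CPM in either population, and a gene was called higher or lower when the log2 ratio of AT3-gcsf over naive, after 5 CPM were added to both values, was at least 1 in size. Of 3838 compared genes, 278 (7.24%) were called higher and 998 (26.0%) lower in AT3-gcsf MHTO5 cells. The call was at least 4-fold for 83 of the higher and 200 of the lower genes. The median log2 ratio of all compared genes was -0.44. The 20 most abundant genes made up 48.1% of UMIs in AT3-gcsf cells and 33.2% in naive cells, and the median was -0.018 when these genes were taken out of the totals. With TMM scaling, which sets the bulk of genes near equality, the median was 0.19, and the higher genes made up 58.5% of all calls in place of 21.8%; with median-of-ratios scaling they made up 55.8%. The ratios below are on the CPM scale and are to be read against the median of -0.44. Counts of calls per list are to be read against 7.24% higher and 26.0% lower of all compared genes. With TMM these shares were 16.5% higher and 11.7% lower. Intervals are exact, at 95%, and cover counting error only.

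**Figure D1:**
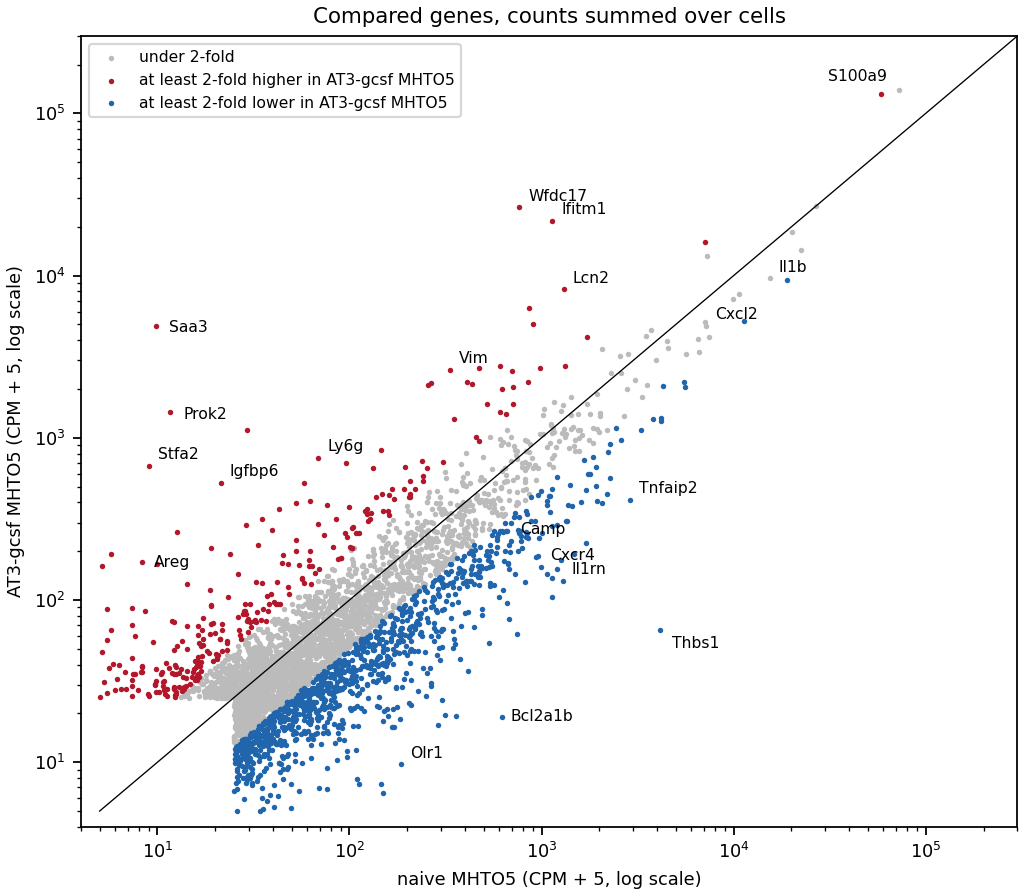
Summed expression of each compared gene in AT3-gcsf MHTO5 cells and naive MHTO5 cells, as CPM with 5 added, on log axes, 1 point per gene, with genes called higher in AT3-gcsf in red and genes called lower in blue. Saa3 (4904 CPM in AT3-gcsf and 4.80 CPM in naive cells) and Thbs1 (60.5 CPM in AT3-gcsf and 4151 CPM in naive cells) lie farthest from the diagonal on either side.

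Among the 28 gene lists, the acute-phase and alarm genes had the highest median ratio in AT3-gcsf MHTO5 cells. Of the 17 compared members, 13 were called higher and none lower, beside 7.24% and 26.0% of all compared genes. Their median log2 ratio was 2.31 against -0.44 for all compared genes. Without S100a8 and S100a9, which the choice of cells used, 12 of 15 were higher and none lower, and the median was 2.48. Saa3, an inducible serum amyloid A made outside the liver, had the highest log2 ratio of all compared genes on the scale with 5 CPM added, 8.97: 175913 counts (4904 CPM) in AT3-gcsf cells against 33 counts (4.80 CPM) in naive cells, a 1021-fold ratio without the added CPM. The other AT3-gcsf populations also carried it, with 4113 CPM under MHTO3 and 2538 CPM under MHTO4. The AT3 MHTO8, MHTO7 and MHTO10 populations had 146, 6.61 and 103 CPM, and the naive MHTO3 and MHTO4 populations had 8.91 and 0.0780 CPM. Saa3 was thus higher in each AT3-gcsf population than in each AT3 and naive population, while AT3 MHTO7 cells lay within the naive range.

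Saa3 lies on the minus strand at chr7:46711998-46715700 (mm10, GENCODE vM21). Its promoter is shown because Saa3 had the highest of these log2 ratios and C/EBP factors are textbook regulators of acute-phase genes. The 250 bases before the RefSeq start (GRCm38.p6, chr7:46715677-46715926, minus strand) are printed 5′ to 3′, with matches to the C/EBP-type letters TTNNGNAA in capitals.
Saa3: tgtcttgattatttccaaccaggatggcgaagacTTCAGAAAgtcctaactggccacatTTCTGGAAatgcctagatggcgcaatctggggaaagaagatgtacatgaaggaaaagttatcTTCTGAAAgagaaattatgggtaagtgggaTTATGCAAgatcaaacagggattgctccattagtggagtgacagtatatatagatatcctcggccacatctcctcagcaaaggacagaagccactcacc
The window holds 4 matches, the last of them 99 to 92 bases before the start. On either strand, the letters occur in 36.9% of 27025 RefSeq promoters and 30.5% of the 3080 promoters of compared genes, counted over the 250 bases before the start. They occur in 8 of the 14 promoters found for the 15 genes with the highest ratios, and in 2 of the 9 found for the 15 with the lowest. A match is a description of letters, not of a bound site.

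Prok2, a small secreted attractant of myeloid cells also called Bv8, had 1427 CPM in AT3-gcsf cells against 6.70 CPM in naive cells (log2 ratio 6.94). Wfdc17, a small secreted protein of the whey acidic protein family, had 26374 CPM in AT3-gcsf cells against 760 CPM in naive cells (log2 5.11). Igfbp6, a binding protein of insulin-like growth factors, had 521 CPM in AT3-gcsf cells against 16.4 CPM in naive cells (log2 4.62). These 3 genes were high in AT3 MHTO8 cells too, at 584 CPM for Prok2, 13335 CPM for Wfdc17 and 530 CPM for Igfbp6, so for Igfbp6 the AT3-gcsf and AT3 values differed by a log2 ratio of only -0.02. Lcn2, the iron-chelator carrier lipocalin 2, had 8228 CPM in AT3-gcsf cells against 1300 CPM in naive cells (log2 2.66). Cd177, a neutrophil surface glycoprotein, had 393 CPM in AT3-gcsf cells against 47.4 CPM in naive cells (log2 2.92). S100a8 stood at 130889 CPM in AT3-gcsf and 58164 CPM in naive cells (log2 1.17) and its partner S100a9 at 139155 and 72542 CPM (log2 0.94), but both entered the choice of cells and are given as description only. Ly6g, the surface antigen most used to sort mouse neutrophils, had 749 CPM in AT3-gcsf cells against 63.9 CPM in naive cells (log2 3.45). Under MHTO4, however, Ly6g stood at 651 CPM in AT3-gcsf and 778 CPM in naive cells.

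Stefins, which inhibit cysteine proteases, were mostly higher. Of 6 compared members of the stefin and cystatin list, 4 were higher and 1 lower, beside 7.24% and 26.0% of all compared genes. The list median was 2.02. Stfa2 had 669 CPM in AT3-gcsf cells against 4.08 CPM in naive cells (log2 6.21), Stfa3 had 258 against 7.71 CPM (log2 4.37) and Stfa1 had 691 against 90.4 CPM (log2 2.87). Cstdc5, a related gene outside the list, had 1112 CPM in AT3-gcsf cells against 24.2 CPM in naive cells (log2 5.26). These genes lie in a cluster of near-identical copies, so the assignment of reads among them is uncertain. The member that fell was Cstb, cystatin B, with 197 CPM in AT3-gcsf cells against 517 CPM in naive cells (log2 -1.37, and -0.79 with TMM).

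Several transcripts were present in AT3-gcsf cells and close to the detection limit in naive cells. Spint1, a membrane-bound inhibitor of serine proteases, had 5640 counts (157 CPM) in AT3-gcsf cells against 1 count in naive cells, and the counting interval of its log2 ratio without added CPM ran from 7.60 to 15.4. Nos2, the inducible nitric oxide synthase, had 1531 counts (42.7 CPM) in AT3-gcsf cells against 1 count in naive cells, with an interval from 5.72 to 13.5. Cpne8, a calcium-dependent membrane-binding copine, had 2978 counts (83.0 CPM) against 3 counts, with an interval from 6.02 to 9.85. In AT3 MHTO8 cells each of these lay between the AT3-gcsf and naive MHTO5 levels, at 12.1 CPM for Spint1, 13.1 CPM for Nos2 and 2.47 CPM for Cpne8. For scale, 3 counts in naive MHTO5 cells equal 0.437 CPM. Ggt1, which breaks down extracellular glutathione, had 187 CPM in AT3-gcsf cells against 0.728 CPM in naive cells (log2 5.06). Cd38, a NAD-consuming surface enzyme, had 60.6 against 0.728 CPM (log2 3.52), and Casp6, an effector caspase, had 161 against 4.95 CPM (log2 4.06). Ifitm1, an interferon-inducible membrane protein, reached 21669 CPM in AT3-gcsf cells against 1133 CPM in naive cells (log2 4.25).

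Granule genes divided by class. Their counts stand beside 7.24% higher and 26.0% lower calls among all compared genes. The primary granule list had only 3 compared members, all higher: Ctsc, the protease that activates granule serine proteases, had 110 CPM in AT3-gcsf cells against 13.7 CPM in naive cells (log2 2.62), Prtn3, proteinase 3, had 21.9 against 5.24 CPM (log2 1.40) and Serpinb1a, an inhibitor of those proteases, had 62.8 against 25.6 CPM (log2 1.15). Without the minimum on S100a8 and S100a9 the value of Prtn3 turned to -1.45, and those of Ctsc (0.80) and Serpinb1a (0.91) were under the call. Elane and Mpo, the defining genes of this class, were at 0.502 and 0.613 CPM in AT3-gcsf cells and at 2.04 and 1.46 CPM in naive cells and were not compared. Kit, the stem cell factor receptor of progenitors and mast cells, had 34.6 CPM in AT3-gcsf cells against 1.31 CPM in naive cells (log2 2.65), while mast cell and basophil markers summed to 1.17 CPM in AT3-gcsf and 3.06 CPM in naive cells. Of 12 compared secondary granule genes, 7 were higher and 1 lower, with a median of 1.27. Ngp, neutrophilic granule protein, had 2206 CPM in AT3-gcsf cells against 849 CPM in naive cells (log2 1.37), and Ltf, lactoferrin, had 534 against 236 CPM (log2 1.16). When cells with at least 1% of counts in Ltf, Camp, Ngp, Ceacam10 and Chil3 were left out, 161 AT3-gcsf and 12 naive cells, the value of Ltf was -0.024; in thinned cells it was 0.58. Camp, the cathelicidin antimicrobial peptide, went the other way, with 227 CPM in AT3-gcsf cells against 687 CPM in naive cells (log2 -1.58, and -0.99 with TMM). Of 16 genes of gelatinase granules and late maturation, 2 were higher and 4 lower (median -0.51; with TMM 4 higher and none lower, median 0.07), and the higher ones included Ltb4r1, the leukotriene B4 receptor, at 378 CPM in AT3-gcsf cells against 71.8 CPM in naive cells (log2 2.32).

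Genes of the NF-kB pathway had the lowest median of the 28 lists. Of 19 compared subunits and feedback genes, 16 were lower and none higher in AT3-gcsf MHTO5 cells, beside 26.0% and 7.24% of all compared genes. The list median was -1.64. With TMM scaling 10 were lower, none higher, and the median was -1.07. Tnfaip2, a TNF-induced gene, had 408 CPM in AT3-gcsf cells against 2883 CPM in naive cells (log2 -2.81). Nfkbie, which encodes an inhibitor of NF-kB, had 45.8 against 340 CPM (log2 -2.76), and Tnfaip3, the A20 feedback enzyme, had 48.9 against 351 CPM (log2 -2.72). Icam1, an endothelial and leukocyte adhesion molecule induced by NF-kB, had 11.4 CPM in AT3-gcsf cells against 161 CPM in naive cells (log2 -3.34). Nfkbia, the best-known inhibitor of the pathway, stood at 1117 CPM in AT3-gcsf and 2175 CPM in naive cells (log2 -0.96) and was not called.

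Secreted signals were mostly lower, though not the most abundant ones. Of 18 compared chemokines and cytokines, 11 were lower and 1 higher, beside 26.0% and 7.24% of all compared genes. The list median was -1.44 (with TMM 8 lower and 2 higher, median -0.89). Il1rn, the natural antagonist of the IL-1 receptor, had 127 CPM in AT3-gcsf cells against 1285 CPM in naive cells (log2 -3.29), Csf1, the macrophage growth factor, had 30.7 against 192 CPM (log2 -2.47), and Il1a had 16 against 96.9 CPM (log2 -2.28). Ccl3, an attractant of monocytes and T cells, had 35.9 CPM in AT3-gcsf cells against 202 CPM in naive cells (log2 -2.34), while its neighbour in function Ccl4 stood at 397 CPM in AT3-gcsf and 247 CPM in naive cells (log2 0.68). Those not called included Cxcl2, which draws neutrophils, at 4916 CPM in AT3-gcsf and 7206 CPM in naive cells (log2 -0.55, and 0.04 with TMM), and Il1b at 9607 CPM in AT3-gcsf and 15438 CPM in naive cells (log2 -0.68). Csf3, the gene of G-CSF itself, had 3.57 CPM in AT3-gcsf cells against 26.1 CPM in naive cells (log2 -1.86, and -0.97 when 20 CPM were added).

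The member of that list called higher was Ccl2, the main monocyte attractant, with 84.1 CPM in AT3-gcsf cells against 2.33 CPM in naive cells (log2 3.60). Areg, the growth factor amphiregulin, which signals through the EGF receptor in tissue repair, had 166 CPM in AT3-gcsf cells against 3.35 CPM in naive cells (log2 4.36). In the AT3-gcsf library both were high under MHTO5 and low under the other tags: in MHTO3 and MHTO4 cells Areg was at 1.80 and 1.78 CPM and Ccl2 at 6.31 and 4.90 CPM. AT3 MHTO8 cells had 71.7 CPM of Areg and 27.1 CPM of Ccl2. Without the minimum on S100a8 and S100a9 the log2 ratio of Areg was 2.28 and that of Ccl2 was 0.22.

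Areg lies on the plus strand at chr5:91139599-91148432 (mm10, GENCODE vM21). Its promoter is shown because Areg was among the 15 highest ratios in MHTO5 while its log2 ratio was 0.07 under MHTO3 and 0.40 under MHTO4; the 250 bases before the RefSeq start (GRCm38.p6, chr5:91139349-91139598, plus strand) have the cyclic AMP response element TGACGTCA and a TATA box, TATAAA, in capitals.
Areg: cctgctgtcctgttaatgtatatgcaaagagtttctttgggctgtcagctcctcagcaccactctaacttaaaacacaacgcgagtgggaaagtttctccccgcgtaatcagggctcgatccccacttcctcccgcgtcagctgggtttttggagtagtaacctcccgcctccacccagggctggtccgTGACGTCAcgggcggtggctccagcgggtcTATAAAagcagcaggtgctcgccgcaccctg
On either strand TGACGTCA occurs in 1.62% of RefSeq promoters and 3.47% of those of compared genes, and TATAAA in 13% and 7.14%.

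Immediate-early genes, which are switched on within minutes of a stimulus, were lower in AT3-gcsf cells in 13 of 26 compared members and higher in 1, Fosl1 (log2 1.01, with no member called higher in 7 of 16 alternatives; median of the list -1.03, and -0.39 with TMM, where 7 were lower and 3 higher). Of all compared genes 26.0% were lower and 7.24% higher. Nr4a3, an orphan nuclear receptor, had 14.3 CPM in AT3-gcsf cells against 353 CPM in naive cells (log2 -4.21). Dusp2, a phosphatase of MAP kinases, had 31.5 against 410 CPM (log2 -3.51), and Zfp36, which destabilises cytokine mRNAs, had 119 against 562 CPM (log2 -2.19). Fos, a subunit of AP-1, had 403 CPM in AT3-gcsf cells against 1059 CPM in naive cells (log2 -1.38).

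Among all genes Thbs1, the extracellular matrix glycoprotein thrombospondin 1, an inhibitor of vessel growth, had the lowest ratio: 2171 counts (60.5 CPM) in AT3-gcsf cells against 28524 counts (4151 CPM) in naive cells, a log2 ratio of -5.99. In the other populations Thbs1 was at 0.829 CPM in AT3-gcsf MHTO3, 0.859 CPM in AT3-gcsf MHTO4, 220 CPM in AT3 MHTO8, 102 CPM in naive MHTO3 and 179 CPM in naive MHTO4 cells. MHTO5 was therefore the population richest in Thbs1 within both libraries.

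The survival genes Bcl2a1b, Bcl2a1a and Bcl2a1d, near-identical copies of an NF-kB-induced relative of Bcl2, came next. Bcl2a1b had 14.1 CPM in AT3-gcsf cells against 615 CPM in naive cells (log2 -5.02), Bcl2a1a had 1.48 against 144 CPM (log2 -4.52) and Bcl2a1d had 2.31 against 141 CPM (log2 -4.32). All 3 went the same way, although reads cannot be assigned with certainty among such copies. Olr1, the receptor of oxidised low-density lipoprotein, had 4.71 CPM in AT3-gcsf cells against 181 CPM in naive cells (log2 -4.26). The RefSeq promoters of these 4 genes share the AP-1 letters TGANTCA, in capitals in the stretches below (GRCm38.p6), which are shown because the letters occur in 4 of the 9 promoters found for the 15 genes with the lowest ratios and in 1 of 14, that of Prok2, for the highest.
Bcl2a1a, chr9:88956775-88956831, plus strand: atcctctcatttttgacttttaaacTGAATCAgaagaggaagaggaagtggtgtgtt
Bcl2a1b, chr9:89199084-89199140, plus strand: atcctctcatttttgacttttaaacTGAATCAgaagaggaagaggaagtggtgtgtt
Bcl2a1d, chr9:88731933-88731989, minus strand: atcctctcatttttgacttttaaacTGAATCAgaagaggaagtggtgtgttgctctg
Olr1, chr6:129507194-129507250, minus strand: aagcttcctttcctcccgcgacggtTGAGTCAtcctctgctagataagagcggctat
The 3 Bcl2a1 stretches are copies of one another and count as 1 observation. On either strand the letters are in 6.87% of RefSeq promoters. The STAT-type letters TTCNNNGAA were in none of the 14 and none of the 9 promoters, against 7.18% of all, which says only that these letters are absent from those windows.

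Genes of G-CSF and STAT3 signalling gave no higher call in AT3-gcsf MHTO5 cells. Of 13 compared members 7 were lower and none higher, beside 26.0% and 7.24% of all compared genes. The list median was -1.01. With TMM scaling 2 were lower and 1 higher, beside 11.7% and 16.5% of all compared genes, and the median was -0.43. Csf3r, the G-CSF receptor, had 652 CPM in AT3-gcsf cells against 1921 CPM in naive cells (log2 -1.55, and -0.97 with TMM). Pim1, a kinase induced by STAT factors, had 905 against 2267 CPM (log2 -1.32, and -0.73 with TMM), and Osm, the cytokine oncostatin M, had 166 against 541 CPM (log2 -1.67). Socs3, the feedback inhibitor of the G-CSF receptor, stood at 257 CPM in AT3-gcsf and 279 CPM in naive MHTO5 cells (log2 -0.12). Under the other tags Socs3 had 604 CPM in AT3-gcsf MHTO3 against 208 CPM in naive MHTO3 cells (log2 1.52) and 542 CPM in AT3-gcsf MHTO4 against 14.1 CPM in naive MHTO4 cells (log2 4.84).

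**Figure D2:**
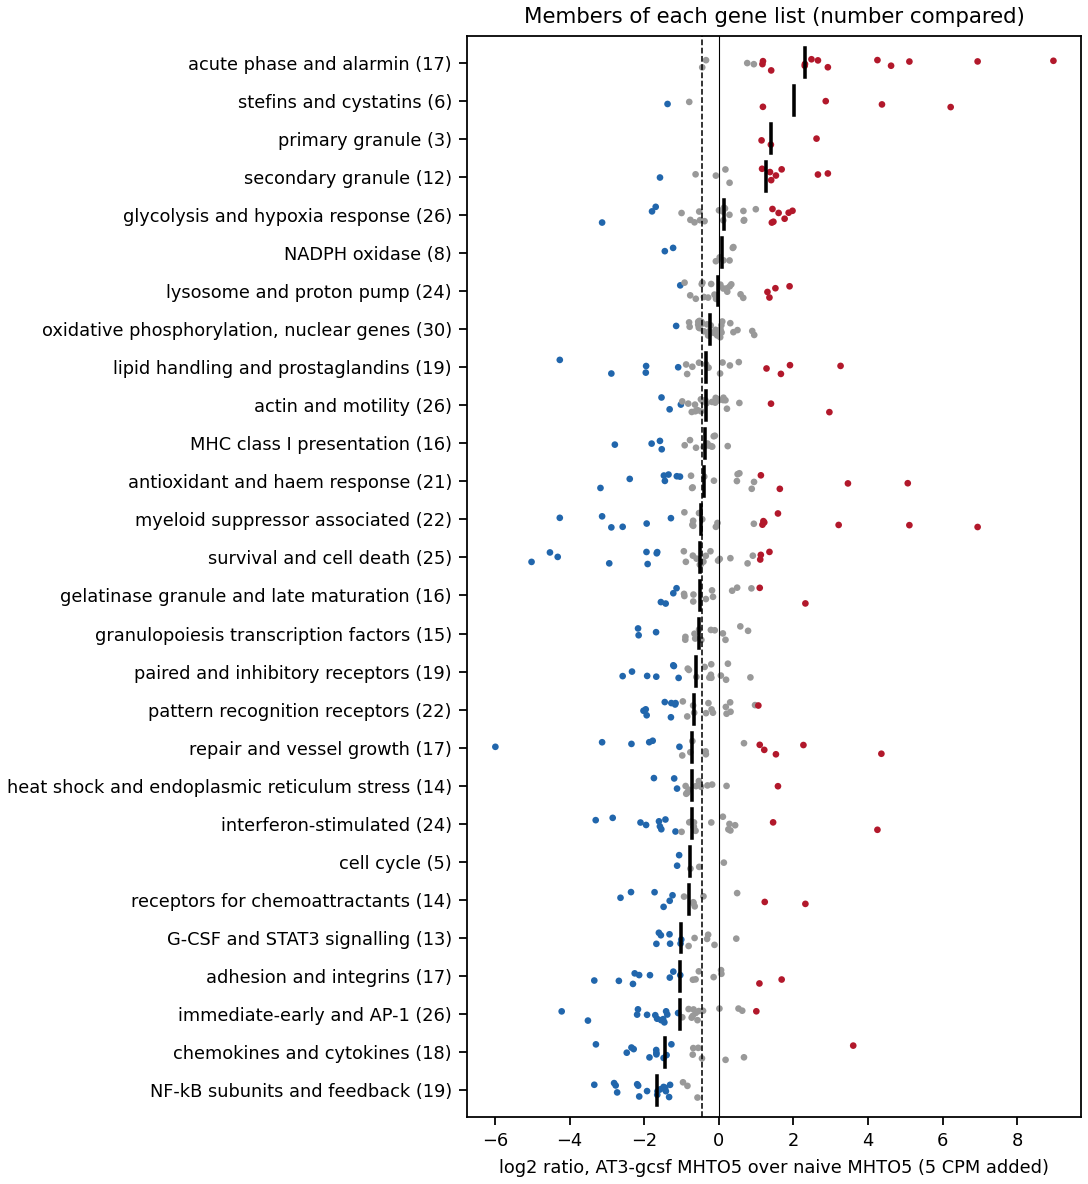
Log2 ratio of AT3-gcsf MHTO5 over naive MHTO5 for each compared member of 28 gene lists, 1 point per gene, red where called higher in AT3-gcsf, blue where called lower and grey otherwise, with a black bar at each list's median. The dashed line marks the median of all compared genes, -0.44; the acute-phase list (median 2.31) and the NF-kB list (median -1.64) stand at opposite ends.

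Receptors and adhesion molecules gave more lower than higher calls, as did all compared genes (26.0% lower and 7.24% higher), and TMM scaling narrowed the difference in both. Of 14 chemoattractant receptors 6 were lower and 2 higher (with TMM 3 and 3 of 12): Cxcr4, which holds neutrophils in the marrow and marks aged cells, had 155 CPM in AT3-gcsf cells against 991 CPM in naive cells (log2 -2.63), and Ptafr, the receptor of platelet-activating factor, had 183 against 953 CPM (log2 -2.35). Cxcr2, the receptor that draws neutrophils out of the marrow, stood at 459 CPM in AT3-gcsf and 738 CPM in naive cells (log2 -0.68). Of 17 adhesion genes 9 were lower and 2 higher (with TMM 6 and 2); Cd9, a tetraspanin, had 404 CPM in AT3-gcsf cells against 1944 CPM in naive cells (log2 -2.25), and Itgax, the integrin CD11c, had 7.81 against 58.1 CPM (log2 -2.30). Of 22 pattern recognition receptors 8 were lower and 1 higher (with TMM 3 and 2), the lower ones led by Clec4n (Dectin-2) with 42.5 CPM in AT3-gcsf cells against 187 CPM in naive cells (log2 -2.02) and the inflammasome sensor Nlrp3 with 253 against 995 CPM (log2 -1.96). Cd14, the lipopolysaccharide co-receptor, stood at 3948 CPM in AT3-gcsf and 4515 CPM in naive cells (log2 -0.19). Of 19 paired and inhibitory receptors 7 were lower and none higher (with TMM 4 and 1).

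Interferon-stimulated genes did not move as one. Of 24 compared members 9 were lower and 2 higher (median -0.71), beside 26.0% lower and 7.24% higher of all compared genes. With TMM scaling 5 of 21 were lower and 2 higher, with a median of -0.16. Rsad2, the antiviral enzyme viperin, had 20.4 CPM in AT3-gcsf cells against 245 CPM in naive cells (log2 -3.30), and Isg15, a ubiquitin-like modifier, had 171 against 1255 CPM (log2 -2.84). The higher ones were Ifitm1, given above, and Ifitm3 with 2672 CPM in AT3-gcsf cells against 971 CPM in naive cells (log2 1.46). Of 16 genes of MHC class I presentation 4 were lower and none higher, close to the 26.0% of all compared genes that were lower, among them B2m, the invariant light chain, with 593 CPM in AT3-gcsf cells against 1780 CPM in naive cells (log2 -1.58, and -0.99 with TMM); the H2-Q members are near-identical copies with uncertain read assignment. The list median of -0.38 became 0.20 with TMM scaling.

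Genes of MHC class II stood among the 15 lowest, and they moved with markers of other cells. Cd74, the invariant chain, had 14.7 CPM in AT3-gcsf cells against 308 CPM in naive cells (log2 -3.99), H2-Eb1 had 2.34 against 107 CPM (log2 -3.93), H2-Aa had 2.93 against 104.6 CPM (log2 -3.79) and H2-Ab1 had 1.87 against 71.0 CPM (log2 -3.47). Dendritic cell markers summed to 7.44 CPM in AT3-gcsf and 296 CPM in naive cells, and 0 of 10 reached 5 CPM in AT3-gcsf cells against 4 of 10 in naive cells. That list itself holds H2-Aa, H2-Ab1 and H2-Eb1, which make up most of both sums, so it is no separate measure of dendritic cells. Flt3, Cd209a and Siglech were at 0 in AT3-gcsf cells and Siglech at 0 in naive cells. B cell markers summed to 8.36 CPM in AT3-gcsf and 106 CPM in naive cells, with Pax5 at 0 in AT3-gcsf cells and Jchain at 0 in naive cells. After cells with at least 2 UMIs of other cell types' markers were left out, which kept 3354 AT3-gcsf and 1323 naive cells, the log2 ratio was -3.03 for Cd74, -3.24 for H2-Eb1, -2.68 for H2-Aa and -1.87 for H2-Ab1. The part of dendritic cells, whose markers were not among those used to leave cells out, was not tested.

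Metabolic genes were divided. Of all compared genes 7.24% were higher and 26.0% lower, and with TMM 16.5% and 11.7%. Of 26 genes of glycolysis and the hypoxia response 7 were higher and 3 lower (median 0.15; with TMM 13 higher and 3 lower, median 0.77). The glycolytic enzymes Tpi1, with 123 CPM in AT3-gcsf cells against 27.7 CPM in naive cells (log2 1.98), Gapdh, with 2562 against 696 CPM (log2 1.87), and Ldha, with 657 against 190 CPM (log2 1.76), were higher. Hilpda, a hypoxia-induced lipid droplet protein, had 443 CPM in AT3-gcsf cells against 142 CPM in naive cells (log2 1.6). Vegfa, the vessel growth factor and a classical hypoxia target, went the other way, with 18.3 CPM in AT3-gcsf cells against 199 CPM in naive cells (log2 -3.13). Of 30 nuclear genes of oxidative phosphorylation 1, Atp5e, was lower (log2 -1.14) and none higher; with TMM none was lower and 3 were higher.

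Lipid and redox genes gave calls in both directions. Of all compared genes 7.24% were higher and 26.0% lower, so the lower calls among lipid and prostaglandin genes were near the share of all genes. Of 19 lipid and prostaglandin genes 4 were higher and 5 lower (with TMM 4 and 4): Lipg, an endothelial-type lipase, had 65.4 CPM in AT3-gcsf cells against 2.33 CPM in naive cells (log2 3.26), Fabp5, a fatty acid carrier, had 369 against 94.6 CPM (log2 1.91), and Ptgs2, the inducible cyclooxygenase, had 141 against 1067 CPM (log2 -2.88). Of 21 antioxidant genes 4 were higher and 7 lower, but 9 of 20 higher and 2 lower with TMM. Gclm, a subunit of the enzyme that starts glutathione synthesis, had 204 CPM in AT3-gcsf cells against 14.0 CPM in naive cells (log2 3.46), whereas Slc7a11, the cystine importer, had 391 against 2067 CPM (log2 -2.39) and Txnrd1, thioredoxin reductase, had 24.6 against 262 CPM (log2 -3.17). Of 8 NADPH oxidase genes 2 were lower and none higher, and with TMM none was called; the cytosolic subunit Ncf1 had 196 CPM in AT3-gcsf cells against 542 CPM in naive cells (log2 -1.45, and -0.87 with TMM).

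Genes often cited for myeloid suppressor cells gave calls in both directions: of 22 compared, 7 were higher and 6 lower (median -0.49, and 0.07 with TMM). Of all compared genes, 7.24% were higher and 26.0% lower. The list shares Prok2, Wfdc17, S100a8 and S100a9 with the acute-phase list. Prok2, Wfdc17 and S100a8 are among its higher calls, and S100a8 entered the choice of cells. The count of higher calls is therefore given as description only. Cd274, the ligand PD-L1, had 27.4 CPM in AT3-gcsf cells against 188 CPM in naive cells (log2 -2.58). Arg2, mitochondrial arginase, stood at 327 CPM in AT3-gcsf and 624 CPM in naive cells (log2 -0.92). Arg1 had no count in AT3-gcsf cells, which allows up to 0.0836 CPM, and 1.31 CPM in naive cells, too little to be compared. Repair and vessel growth genes had 5 higher and 6 lower calls of 17 (with TMM 6 and 5 of 16). Survival genes had 3 higher and 8 lower of 25 (with TMM 5 and 8 of 26). On the CPM scale the survival list lay not far from all compared genes, with a median of -0.51 against -0.44. Gadd45b, a stress-response gene, had 188 CPM in AT3-gcsf cells against 1469 CPM in naive cells (log2 -2.94). Bcl2l1, the survival factor Bcl-xL, had 79.8 against 28.1 CPM (log2 1.36).

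Of 24 lysosome and proton pump genes 4 were higher and 1 lower, the higher ones being the proteases Ctsl, with 311 CPM in AT3-gcsf cells against 79.9 CPM in naive cells (log2 1.90), Ctss (log2 1.36) and Ctsb (log2 1.3) and the growth factor precursor Grn (log2 1.52); without the minimum on S100a8 and S100a9, Ctss was at 0.07 and Ctsb at 0.78. Of 15 granulopoiesis transcription factors 3 were lower and none higher (with TMM 3 and 2), including Ets2 with 302 CPM in AT3-gcsf cells against 1354 CPM in naive cells (log2 -2.15). Cebpb, the C/EBP factor of emergency granulopoiesis, stood at 7199 CPM in AT3-gcsf and 9950 CPM in naive cells (log2 -0.47). Of 26 actin and motility genes 2 were higher and 3 lower (with TMM 3 and none), with the intermediate filament gene Vim at 2613 CPM in AT3-gcsf cells against 331 CPM in naive cells (log2 2.96). Heat shock and endoplasmic reticulum stress genes had 1 higher and 3 lower calls of 14 (with TMM 1 and 1). Cell cycle genes had 0 higher and 2 lower of 5 (with TMM none). Of all compared genes 7.24% were higher and 26.0% lower, the shares that each list in this paragraph stands beside. The stress list lay near them, and 5 cell cycle genes are too few to set against them. Only 5 of 22 cell cycle genes were compared, and Mki67, the proliferation marker, stood at 0.362 CPM in AT3-gcsf and 3.64 CPM in naive cells.

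The other populations set the MHTO5 values in context; the MHTO3 and MHTO4 comparisons use the same 2 lanes, AT3 MHTO8 cells come from another lane, and the AT3 and AT3-gcsf ratios share the naive MHTO5 cells. Over 4847 genes, the Pearson correlation of log2 expression of AT3-gcsf MHTO5 cells was 0.961 with AT3 MHTO8, 0.939 with AT3-gcsf MHTO3, 0.921 with AT3-gcsf MHTO4 and 0.841 with naive MHTO5 cells. The populations differ in depth and, across libraries, in lane. Set against naive MHTO5 cells, AT3 MHTO8 cells had log2 ratios of 3.94 for Saa3, 5.65 for Prok2, -4.21 for Thbs1 and -2.74 for Bcl2a1b, beside 8.97, 6.94, -5.99 and -5.02 in AT3-gcsf MHTO5 cells. These 3 populations also shared a high level of Cxcl2, which had 4916 CPM in AT3-gcsf MHTO5, 6094 CPM in AT3 MHTO8 and 7206 CPM in naive MHTO5 cells, but between 71.9 and 230 CPM under MHTO3 and MHTO4 in the AT3-gcsf and naive libraries.

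**Figure D3:**
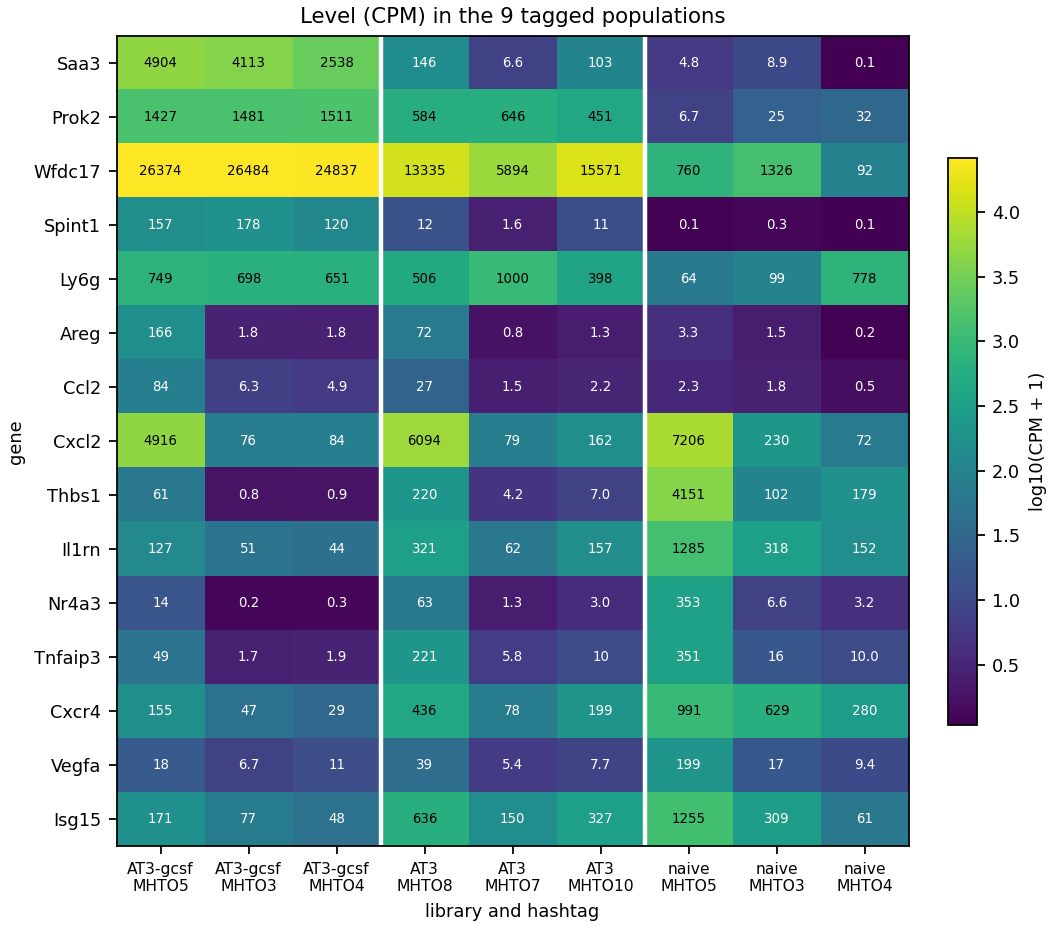
Summed expression of 15 genes in CPM, coloured on a log scale, in the 9 tagged populations of the AT3-gcsf, AT3 and naive libraries. Saa3 is high in the 3 AT3-gcsf populations (4904 CPM under MHTO5, 4113 under MHTO3 and 2538 under MHTO4), whereas Areg is at 166 CPM under MHTO5 and below 2 CPM under MHTO3 and MHTO4 of the same library.

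Some log2 ratios, taken with their sign, lay above those of both other tags in MHTO5. Sftpc, surfactant protein C of alveolar epithelium, had 88.9 CPM in AT3-gcsf MHTO5 cells against 25.5 CPM in naive MHTO5 cells, but in only 0.136% of AT3-gcsf cells thinned to 1000 UMIs, at a mean of 10.2 UMIs each, against 2.12% of naive cells at 1.02. A few cells thus carried the AT3-gcsf sum, and with a tag share of at least 95% the log2 ratio of Sftpc was -2.20 in place of 1.62. Markers of epithelium summed to 136 CPM in AT3-gcsf and 208 CPM in naive MHTO5 cells. Cep19, a centrosomal protein gene, had 55.7 CPM in AT3-gcsf MHTO5 cells against 11.2 CPM in naive MHTO5 cells (log2 1.91), and under MHTO3 it had 107 CPM in AT3-gcsf against 70.4 CPM in naive cells. Mov10, an RNA helicase, had 56.7 CPM in AT3-gcsf MHTO5 cells against 13.8 CPM in naive MHTO5 cells (log2 1.71; 0.45 under MHTO3). Below both other tags lay Il1r2, the decoy receptor of IL-1, with 1261 CPM in AT3-gcsf against 4201 CPM in naive MHTO5 cells (log2 -1.73; -0.13 under MHTO3), Irak2, a kinase of Toll-like receptor signalling, with 27.6 against 150 CPM (log2 -2.25; -0.62 under MHTO3), and Emd, the nuclear envelope protein emerin, with 151 against 670 CPM (log2 -2.11; -0.44 under MHTO3). These genes differed from the other tags mostly in the naive library: Il1r2 was at 689 and 229 CPM in naive MHTO3 and MHTO4 cells, and Emd at 54.5 and 37.0 CPM.

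To compare how many cells carried a transcript, each cell was thinned at random to 1000 UMIs, leaving 3667 AT3-gcsf and 2123 naive cells; 13 and 71 shallower cells were left out. Free RNA was gauged in tagged barcodes of the same library that carried lymphocyte markers and less than 2% S100a8 and S100a9, 23 in AT3-gcsf and 110 in naive, with median depths of 16783 and 5874.5 UMIs before thinning. Saa3 was found in 68.7% of AT3-gcsf cells (67.2 to 70.2) against 0.330% of naive cells (0.133 to 0.678), and unthinned in 90.1% against 0.593%; the lymphocyte-marker barcodes had it in 17.4% in AT3-gcsf and in none in naive. Prok2 was found in 46.1% of AT3-gcsf against 0.283% of naive cells (75.5% against 0.775% unthinned, and in no lymphocyte-marker barcode). Wfdc17 was found in 99.9% of AT3-gcsf against 29.0% of naive cells, beside 43.5% and 5.45% of lymphocyte-marker barcodes. Wfdc17 and Saa3 were thus found in most AT3-gcsf cells, and Prok2 in fewer.

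Areg and Ccl2 were carried by few cells. Areg was found in 9.90% of AT3-gcsf against 0.283% of naive cells (19.2% against 0.365% unthinned; lymphocyte-marker barcodes 0% and 5.45%). Ccl2 was found in 7.14% of AT3-gcsf against 0.283% of naive cells (20.3% against 0.456% unthinned; lymphocyte-marker barcodes 4.35% and 0%). The AT3-gcsf background rests on 23 barcodes, and the summed level of Ccl2 in that library was 84.1 CPM under MHTO5 against 6.31 CPM under MHTO3 and 4.90 CPM under MHTO4. Thbs1 showed the reverse: 4.77% of AT3-gcsf against 81.2% of naive cells (20.4% against 88.1% unthinned; lymphocyte-marker barcodes 8.70% and 5.45%), where the AT3-gcsf background of 8.70% rests on 23 barcodes. Within the AT3-gcsf library the summed level of Thbs1, 60.5 CPM under MHTO5 against 0.829 CPM under MHTO3 and 0.859 CPM under MHTO4, was not shared between tags. Tnfaip2 was found in 34.5% of AT3-gcsf against 85.2% of naive cells (87.6% against 94.8% unthinned; lymphocyte-marker barcodes 4.35% and 9.09%), and Il1rn in 12.9% against 56.0% (50% against 78.2% unthinned; lymphocyte-marker barcodes 0% and 2.73%). Cxcl2 was found in nearly the same share, 87.1% of AT3-gcsf and 87.5% of naive cells (98.5% and 93.6% unthinned; lymphocyte-marker barcodes 13% and 17.3%).

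**Figure D4:**
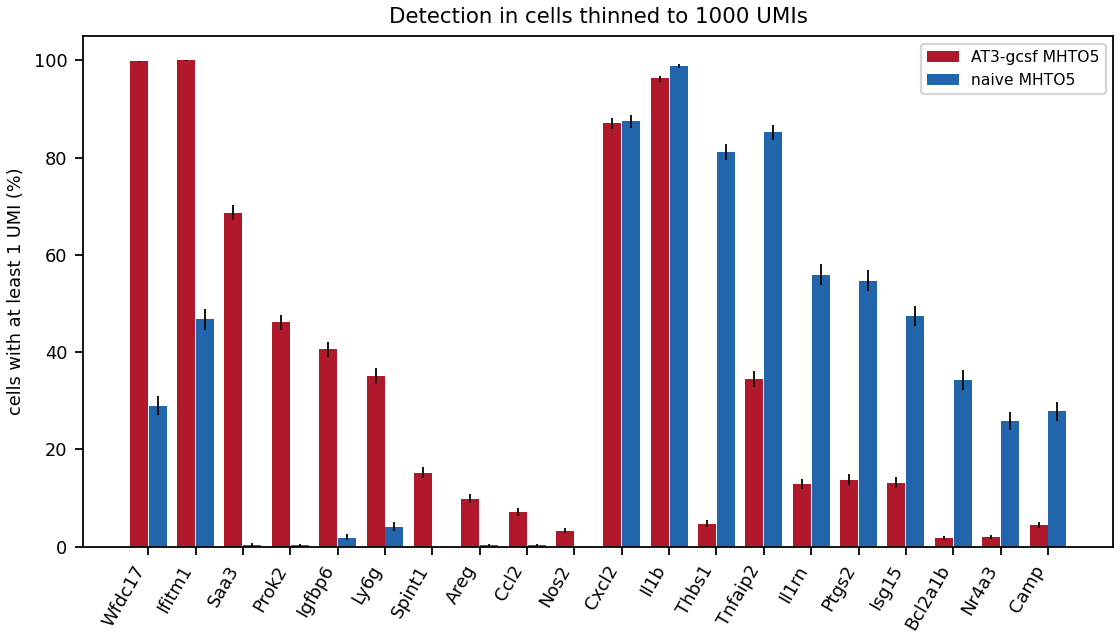
Share of cells, in percent, with at least 1 UMI of each of 20 genes after thinning to 1000 UMIs, for 3667 AT3-gcsf MHTO5 and 2123 naive MHTO5 cells, with exact 95% intervals that cover counting error only. Saa3 (68.7% of AT3-gcsf and 0.330% of naive cells) and Wfdc17 (99.9% and 29.0%) were found in more AT3-gcsf cells, Thbs1 (4.77% and 81.2%) in more naive cells, and Cxcl2 (87.1% and 87.5%) in a like share of both.

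The secondary granule genes were distributed unlike the rest. Ngp was found in 24.7% of AT3-gcsf and 28.1% of naive cells (60% and 60.4% unthinned), although its summed level was higher in AT3-gcsf; cells with Ngp held a mean of 4.60 UMIs in AT3-gcsf and 1.74 in naive. Lymphocyte-marker barcodes carried Ngp in 4.35% in AT3-gcsf and 19.1% in naive, and Camp in 0% in AT3-gcsf and 19.1% in naive. Camp was found in 4.45% of AT3-gcsf against 27.8% of naive cells (19.1% against 59.1% unthinned), so in naive cells the shares of both genes lay near the level in barcodes that should lack them.

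AT3-gcsf MHTO5 cells differed among themselves along the same genes. Of thinned AT3-gcsf cells, 905 had Ngp and 2762 did not. Among cells with Ngp, 29.9% also had Ltf, against 2.53% of cells without, and 14.1% had Camp, against 1.27%. Prok2 was found in 67.7% of cells with Ngp against 39.0% without, and Ly6g in 55.0% against 28.7%. Saa3 went the other way, in 50.1% of cells with Ngp against 74.8% without, as did Ptgs2 (6.41% against 16.1%), Areg (5.41% against 11.4%) and Ccl2 (3.20% against 8.44%). Prok2 and Ly6g thus accompanied the secondary granule transcripts, and Saa3, Areg, Ccl2 and Ptgs2 were more frequent in the cells without them. In naive cells the same split showed little: Ltf was found in 12.4% of the 597 cells with Ngp against 11.5% of the 1526 without, Camp in 29.6% against 27.1% and Ly6g in 3.85% against 4.26%. These are shares within 1 library each, given as description.

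Summed list levels per thinned cell showed how far the populations overlapped. Without S100a8 and S100a9, which the choice of cells used, the acute-phase list took a median of 9.50% of a cell's UMIs in AT3-gcsf cells (10th to 90th percentile 5.8 to 13) against 2.40% in naive cells (1.40 to 3.70), and 99.7% of AT3-gcsf cells lay above the naive median. With both genes the medians were 35.2% in AT3-gcsf and 13.9% in naive cells. The NF-kB list took a median of 0.300% in AT3-gcsf against 1% in naive cells, and 6.11% of AT3-gcsf cells lay above the naive median. The interferon-stimulated list took 3.00% in AT3-gcsf against 0.800% in naive cells, opposite in direction to its list median; Ifitm1 alone stood at 21669 CPM in AT3-gcsf cells. The adhesion list took 0.400% in AT3-gcsf against 0.800% in naive cells, and 3.60% of AT3-gcsf cells lay above the naive median. Gelatinase granule genes took 2.90% in AT3-gcsf and 3.10% in naive cells, with wide overlap.

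**Figure D5:**
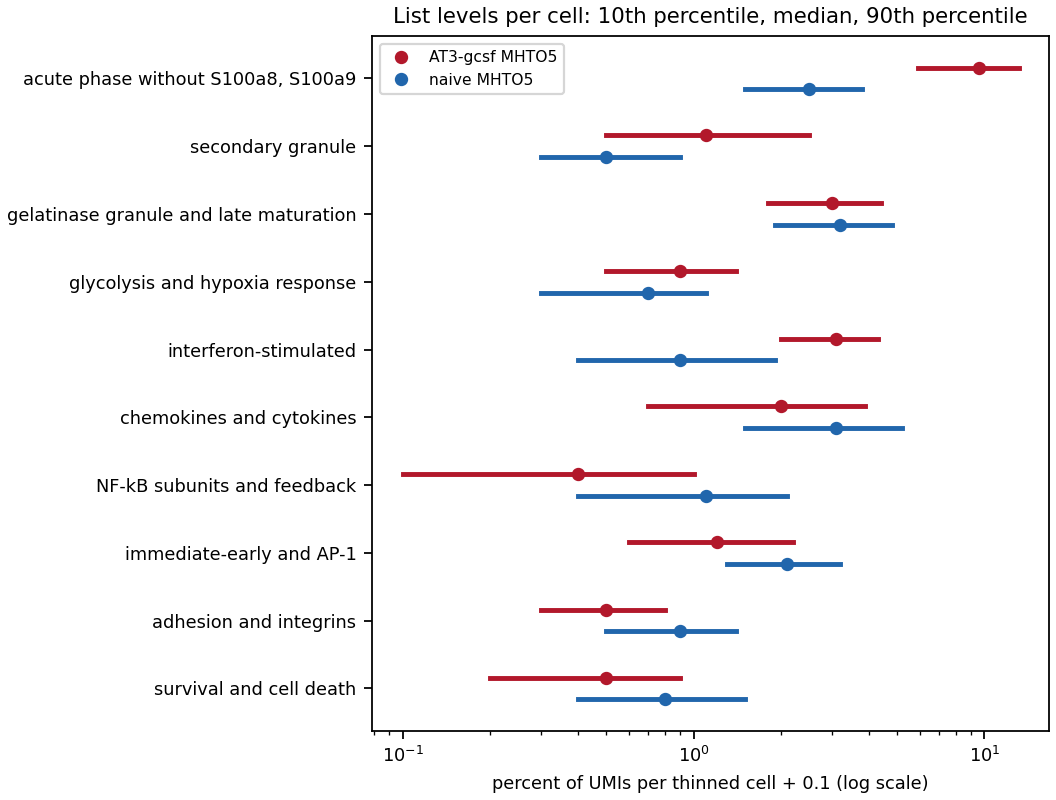
Share of UMIs per cell taken by 10 gene lists, in percent on a log axis with 0.1 added, after thinning to 1000 UMIs; the marker is the median and the line runs from the 10th to the 90th percentile of 3667 AT3-gcsf MHTO5 and 2123 naive MHTO5 cells. The acute-phase list, drawn without S100a8 and S100a9 (medians 9.50% in AT3-gcsf and 2.40% in naive cells), and the interferon-stimulated list (3.00% and 0.800%) are shifted up, and the NF-kB list (0.300% and 1%) down, in AT3-gcsf cells.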

How the data were processed

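The deposited gene expression files held raw UMI counts per gene and called barcode over 32285 features, and the hashtag files raw counts per tag and barcode. Per the submitters' processing notes, Cell Ranger 4.0.0, bcl2fastq 2.20.0.422 and mm10 were used, with the hashtag counting program not given in the sources used here. Hashtag and gene expression barcodes were joined after cutting the suffix. A cell took its top named tag when that tag had at least 20 counts and at least 80% of the named-tag counts. No doublet caller was added to this rule; Scrublet in scanpy 1.11.5 was an alternative. Counts were summed per population with Python 3.11.15, numpy 2.4.6, scipy 1.17.1 and pandas 2.3.3. Scaling factors came from edgeR 4.0.16 and DESeq2 1.42.0 in R 4.3.3, used for alternatives only, without their tests, since each condition has 1 library. CPM carry exact Poisson and shares exact Clopper-Pearson intervals at 95%. Thinning used seed 42. Steps were checked on simulated data.

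Named genes were the 15 highest and 15 lowest ratios, up to 4 members per list, a set of neutrophil genes, the 8 genes furthest above and below the other tags, and the 10 most abundant of each population, 154 in all; a few further members and markers (such as Kit, Elane, Mpo and Mki67) were named after their values were seen. The cells, the 28 gene lists and the 16 marker lists were chosen with earlier results of these data known. Gene positions are from GENCODE vM21 and promoters from RefSeq on GRCm38.p6. Alternatives covered 16 settings of scaling, minimum level, added CPM, cell choice and weighting. A few named genes are not reported here. Leaving S100a8 and S100a9 out of the acute-phase list was an alternative chosen after seeing the data.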

Additional observations from a re-analysis of the deposited data

Results flagged for a closer look

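Some genes called in one direction in MHTO5 cells were called in the opposite direction under another tag of the same 2 libraries; none of these differences between tags was tested. Ngp had a log2 ratio of 1.37 in MHTO5 but -2.63 under MHTO4, where it stood at 3916 CPM in AT3-gcsf against 24292 CPM in naive cells. Ltf had 1.16 in MHTO5 but -2.39 under MHTO4 (1253 against 6576 CPM), and Serpinb1a 1.15 but -1.54 under MHTO4 (150 against 445 CPM). The other way round, Il1r2 had -1.73 in MHTO5 but 1.76 under MHTO4 (788 CPM in AT3-gcsf against 229 CPM in naive cells), Srgn, the granule proteoglycan serglycin, -1.10 (-0.51 with TMM) but 1.67 (2428 against 760 CPM), Clec4n -2.02 but 1.25 (26.6 against 8.26 CPM), Cstb -1.37 but 1.14 (178 against 78.2 CPM) and Clec4e, the receptor Mincle, -1.28 (-0.70 with TMM) but 1.05 (343 against 164 CPM). Sftpc had 1.62 in MHTO5, but -2.58 under MHTO3 (1.11 CPM in AT3-gcsf against 31.5 CPM in naive cells) and -6.35 under MHTO4 (0.954 against 481 CPM).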

How the results depend on the processing

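No paired analysis was possible because each condition has 1 library and no label ties its cells to animals; for the same reason no replicate could be left out. Of 154 named genes, 129 were called at least 2-fold, and 93 of them stayed called in the same direction under all 16 alternatives. The 278 higher genes became 635 with TMM, 607 with median-of-ratios, 615 with totals that omit the 20 most abundant genes, 179 with a 50 CPM minimum, 177 with 20 CPM added and 184 with no minimum on S100a8 and S100a9. The 998 lower genes became 450 with TMM, 480 with median-of-ratios and 630 with 20 CPM added. The median of -0.44 became 0.19, 0.15 and -0.018 under the 3 other scalings, -0.041 with no minimum beyond 1 count, -0.55 with 50 CPM, -0.48 with 1 CPM added, -0.33 with 20 CPM added, -0.63 with no minimum on S100a8 and S100a9 and -0.37 with a minimum of 10%, -0.33 with equal weight per cell and -0.31 with thinned cells. Of 12 named genes that changed sign under some setting, 9 were under 2-fold to begin with (Cxcl2 became 0.04 with TMM, for example); 12 of 28 list medians changed sign, 11 of them with TMM. Prtn3 became -1.45 and the primary granule list median -2.26 without the S100a8 and S100a9 minimum, and Ltf became -0.024 without cells rich in secondary granule transcripts. Sftpc became -3.05 with no minimum on S100a8 and S100a9, -2.21 with 10%, -2.20 with a tag share of at least 95%, -0.58 with equal weight, -0.87 with thinned cells and -1.45 without cells holding other types' markers. The causes were not tested.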

Other observations

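Of 19 compared inhibitory and paired receptors 7 were lower and none higher in AT3-gcsf MHTO5 cells, and with TMM scaling there was also 1 higher call. Of all compared genes 26.0% were lower, and the list median was -0.60 against -0.44 for all compared genes. Cd101, a surface glycoprotein used to mark mature neutrophils, had 13.3 CPM in AT3-gcsf cells against 86.7 CPM in naive cells (log2 -2.33). Cd300ld, an activating receptor of the CD300 family, had 204 against 787 CPM (log2 -1.92), and Lilr4b, an immunoglobulin-like receptor with close paralogs, had 256 against 829 CPM (log2 -1.68). In the stress list, the endoplasmic reticulum chaperone Hspa5 had 155 CPM in AT3-gcsf cells against 530 CPM in naive cells (log2 -1.74), whereas Xbp1, a transcription factor of the same stress response, had 159 against 49.6 CPM (log2 1.59, and 0.84 without the minimum on S100a8 and S100a9). Tgm2, a protein cross-linking transglutaminase, had 56.7 CPM in AT3-gcsf cells against 739 CPM in naive cells (log2 -3.59), and Vps37b, a subunit of the endosomal sorting machinery, had 99.0 against 1126 CPM (log2 -3.44).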
